A study of Mus musculus with 8 samples.

Results

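Mitochondrial ribosomal proteins are the proteins of the 2 subunits of the ribosome that works inside mitochondria. They were taken here as all genes whose single symbol in the platform annotation starts with Mrpl (large subunit) or Mrps (small subunit) followed by a digit. This gave 76 of the 18193 genes measured, 47 Mrpl and 29 Mrps genes. Each gene was read from its brightest probe set, the one with the highest mean over all arrays. All 76 lay above the working floor (log2 signal 5.22, the 40th percentile of all values) on all 8 arrays, so all 76 were among the 13983 genes tested.

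The mitoribosome translates the few messenger RNAs encoded by mitochondrial DNA, which specify core subunits of the respiratory chain and of ATP synthase. Its RNA comes from mitochondrial DNA, while all of its proteins are encoded in the nucleus, made in the cytosol and imported. Part of these proteins have a counterpart in bacterial ribosomes, and part occur only in mitochondria. T cells that leave quiescence are known to enlarge their mitochondria and to depend on mitochondrial translation for proliferation and cytokine production.

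RNA was measured on 8 Affymetrix mouse arrays, 2 for each of 4 groups. All groups were primary CD4+ T cells of strain BALB/c. Control cells were cultured without stimulation and given the solvent DMSO, and the dorsomorphin group was cultured without stimulation and given 4 µM dorsomorphin. The stimulated group was first held for 1 h with immobilised antibody against CD3 and dissolved antibody against CD28, which engage the T cell receptor and its main costimulatory receptor, and then given DMSO. The last group had the same antibodies and then 4 µM dorsomorphin. Compound or DMSO was present for 6 h in every group. Dorsomorphin blocks the kinases of bone morphogenetic protein (BMP) receptors and also AMPK, an energy sensor, and the series title names BMP signalling in T cell activation as its subject.

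Nothing in the labels shows that replicates came from separate mice or cultures. The p-values therefore measure array-to-array spread that may be technical, and the number of arrays limits the precision. Median signals per array ranged from 45.4 to 74.5, and arrays of a group correlated at 0.937 to 0.952. Of the defining T cell markers, Cd3e was at a signal of 788 to 5818 over all arrays, and Cd4 at 1758 to 2073 on the control arrays and at up to 695 on the others. The summed signal of 8 T cell markers was 76105 to 76570 on the control arrays, 56522 to 57866 on the stimulated, 25950 to 35434 on the dorsomorphin and 37324 to 38161 on the stimulated arrays with dorsomorphin. In the same order, 9 myeloid and dendritic cell markers summed to 6209 to 7141, 3139 to 3977, 4377 to 4772 and 4654 to 4921. These markers differed widely, with Itgam at 1.40 to 51.9, Lyz2 at 212.5 to 1712.6 and Cst3 at 2470 to 4028.1 over all arrays. The summed signal of 6 B cell markers was 227 to 608 over all arrays. Cd79a was at 3.80 to 51.9 and Cd79b at 22.7 to 239.5. The 5 cytotoxic T and NK cell markers summed to 1461 to 1846 on the control arrays and 424 to 716 on the others. The part of these markers in the results below was not tested. In such bulk RNA, fewer cells of a type and less RNA per cell cannot be told apart.

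**Figure D1:**
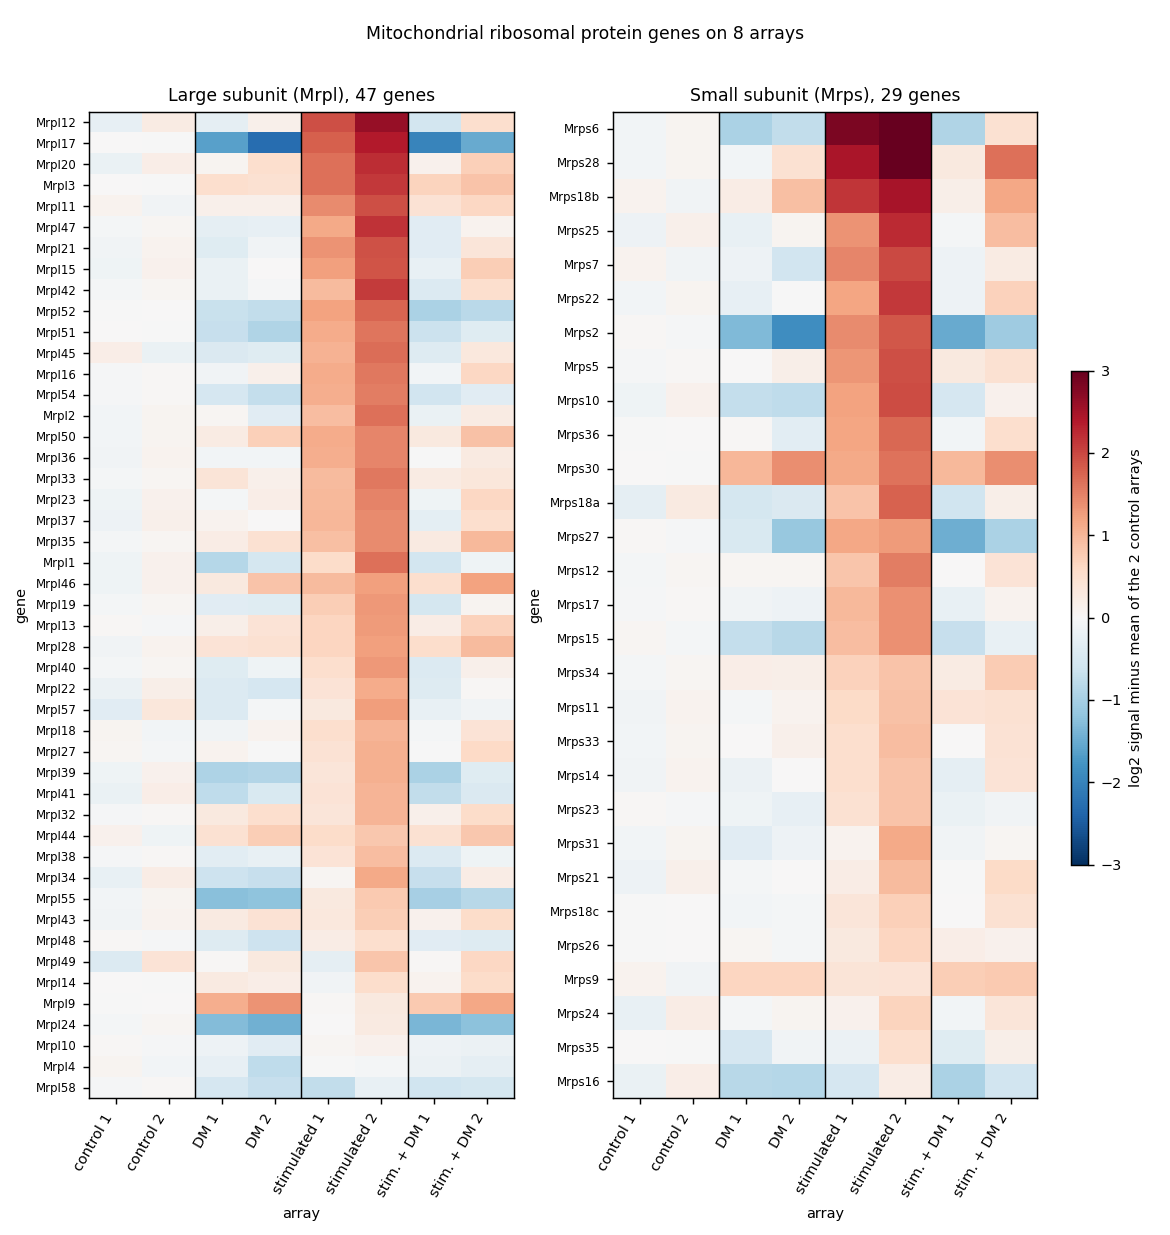
Heat maps of the 47 Mrpl and 29 Mrps genes (rows) on each of the 8 arrays (columns). Colour shows log2 signal minus the mean of the 2 control arrays of the same gene. Rows are ordered by the log2 difference of the stimulated from the control group. The stimulated columns are red in nearly every row, by a median of 1.10 over the 76 genes, while the dorsomorphin columns, with and without stimulation, are mixed.

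Promoter sequences of members were read from RefSeq (GRCm38.p6), as 300 bases from 250 before to 50 after each gene start. The table held 73 promoters for 67 of the 76 members, and 32851 promoters in all. Motifs known to be bound by regulators of mitochondrial or growth genes were searched on both strands, and none of them contains another. The ETS motif CCGGAAG, bound by GABP and relatives, was in 25 of the 73 member promoters (34.2%) and in 8.9% of all promoters. The motif GCGCATG, which is part of the palindrome bound by NRF1, was in 8 (11.0%) against 3.9% of all. The YY1 motif AAGATGG was in 13 (17.8%) against 6.3%. For NRF1 and YY1 the plan had named longer motifs, and these shorter strings were searched in their place. The E-box CACGTG, bound by Myc with Max, was in 7 (9.6%) against 7.2%. Of these 7, 3 are overlapping windows of Mrpl2, and by genes the E-box was in 5 of 67 (7.5%). Member promoters had a median GC content of 58.7% against 52.7% for all promoters, and the motif shares were not adjusted for it. The windows of Mrpl46 and Mrps11 overlapped on opposite strands, so these genes, 1 of each subunit, start next to each other and run apart. The 250 bases before the start are shown for 6 members whose signals are described below, chosen after their values were seen. Mrpl12 is the Mrpl gene with the largest rise and holds none of the motifs, and the others hold at least 1 each. They are written 5′ to 3′ on the strand of the gene, with the motif in capitals.
Mrpl17, chr7:105811088-105811337, minus strand: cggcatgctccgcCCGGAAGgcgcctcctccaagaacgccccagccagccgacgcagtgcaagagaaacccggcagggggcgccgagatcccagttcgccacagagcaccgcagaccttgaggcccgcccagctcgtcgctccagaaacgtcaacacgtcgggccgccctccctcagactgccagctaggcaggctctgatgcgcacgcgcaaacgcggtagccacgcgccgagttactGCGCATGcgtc
Mrpl12, chr11:120484387-120484636, plus strand: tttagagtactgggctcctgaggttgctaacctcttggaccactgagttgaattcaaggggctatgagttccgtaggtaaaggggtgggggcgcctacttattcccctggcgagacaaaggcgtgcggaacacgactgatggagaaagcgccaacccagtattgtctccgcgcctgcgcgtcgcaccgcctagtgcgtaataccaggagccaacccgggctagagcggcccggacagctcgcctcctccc
Mrpl20, chr4:155802628-155802877, plus strand: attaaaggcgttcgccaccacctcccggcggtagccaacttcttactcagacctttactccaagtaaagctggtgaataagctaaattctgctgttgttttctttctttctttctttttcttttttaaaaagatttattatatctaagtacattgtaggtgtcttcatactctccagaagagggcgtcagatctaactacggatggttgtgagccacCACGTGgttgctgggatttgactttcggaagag
Mrpl3, chr9:105053018-105053267, plus strand: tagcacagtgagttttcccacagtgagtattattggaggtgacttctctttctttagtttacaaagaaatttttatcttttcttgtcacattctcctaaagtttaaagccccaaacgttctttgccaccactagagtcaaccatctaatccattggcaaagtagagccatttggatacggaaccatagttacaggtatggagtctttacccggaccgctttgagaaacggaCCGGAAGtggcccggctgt
Mrps22, chr9:98601680-98601929, minus strand: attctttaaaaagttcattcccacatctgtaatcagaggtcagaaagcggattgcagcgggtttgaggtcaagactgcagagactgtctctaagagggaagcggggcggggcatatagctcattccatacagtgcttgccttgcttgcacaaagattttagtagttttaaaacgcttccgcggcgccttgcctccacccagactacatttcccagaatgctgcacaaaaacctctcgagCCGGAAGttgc
Mrpl9, chr3:94443086-94443335, plus strand: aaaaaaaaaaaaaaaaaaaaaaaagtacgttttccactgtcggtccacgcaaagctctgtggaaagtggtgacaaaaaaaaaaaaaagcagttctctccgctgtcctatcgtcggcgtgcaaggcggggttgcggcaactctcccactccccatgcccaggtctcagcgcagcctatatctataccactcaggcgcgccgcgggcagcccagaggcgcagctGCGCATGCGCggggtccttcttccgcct
In these windows the NRF1 motif began 11 bases before the start of Mrpl17, and at 28 and 25 before that of Mrpl9, where its strands overlap. The ETS motif began 237 bases before the start of Mrpl17, 19 before that of Mrpl3 and 11 before that of Mrps22, and the E-box 33 bases before that of Mrpl20. A match describes the letters of the window and is not a measured binding site.

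The first comparison asked how stimulation changed these genes in the absence of dorsomorphin. Of the 76 members, 32 rose, 0 fell and 44 did not pass the test (limma, Benjamini-Hochberg adjusted p under 0.05 over all genes tested). By the same rule 8.98% of all genes tested rose and 14.4% fell. The risers were 17 of 47 Mrpl and 15 of 29 Mrps genes. The median log2 difference was 1.10 over the members and -0.27 over all genes tested, and 73 of 76 members were higher in the stimulated group. The members were brighter than most genes, with median log2 signals per array of 10.27 to 11.86, against 6.28 to 7.06 over all genes measured. The part of this brightness in the comparisons with all genes was not tested. Both stimulated arrays lay above both control arrays for 66 members (40 Mrpl and 26 Mrps), against 25.1% of all genes tested, and both lay below for 1, Mrpl58, against 42.0%.

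The highest difference among the Mrps genes was that of Mrps6, which lies at the platform side of the small subunit. Its signal was 1402 and 1560.1 on the control arrays and 10418 and 12099 on the stimulated arrays. It was 766 and 891 with dorsomorphin alone and 797 and 2038 with stimulation and dorsomorphin. The stimulated arrays thus stood above all 6 others, with no overlap. Stimulation raised Mrps6 by 2.92 on the log2 scale (SE 0.45, limma adjusted p = 0.0133), and its other probe set differed by 2.75. Mrps28, assigned as the counterpart of bacterial protein S1, had signals of 581 and 656 on the control and 3384 and 5581 on the stimulated arrays. Its signals were 585 and 841 with dorsomorphin and 760 and 1954 with both. Every stimulated value again exceeded every other, and the log2 difference from control was 2.82 (SE 0.51, limma adjusted p = 0.0178). Mrps18b, 1 of 3 mammalian relatives of bacterial S18, gave 678 and 591 in control and 2814 and 3528 in stimulated cells, a rise of 2.31 (SE 0.41, limma adjusted p = 0.0169).

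Among the Mrpl genes the highest difference was that of Mrpl12, a protein of the flexible stalk that recruits translation factors to the ribosome, whose promoter is among those shown. Its signal was 1721 and 2441 on the control, 7790.4 and 12540.1 on the stimulated, 1706 and 2262 on the dorsomorphin, and 1394 and 2885 on the stimulated arrays with dorsomorphin. The stimulated arrays stood above all 6 others, which overlapped among themselves. The rise was 2.27 (SE 0.45, limma adjusted p = 0.0221). The other proteins of the stalk region had smaller differences, which were not tested against that of Mrpl12. Mrpl11, at the base of the stalk, went from 1030.2 and 896 in control to 2565 and 3680.1 in stimulated cells, a rise of 1.68 (SE 0.26, limma adjusted p = 0.0133). Mrpl10, which anchors Mrpl12, had 1509 and 1418 in control and 1526 and 1604 in stimulated cells, a difference of 0.10 (95% interval -0.40 to 0.60, limma adjusted p = 0.766). These are differences of each gene from its own control, since signals of different probe sets cannot be compared.

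Mrpl17, a large subunit protein with a bacterial counterpart, rose from 1261 and 1249 to 4316 and 6565, by 2.08 (SE 0.35, limma adjusted p = 0.0156). Its 2 dimmer probe sets, 1 of them under the floor on average, differed by 0.06 and 0.02. Mrpl3, a core protein near the peptidyl transferase centre, had the lowest adjusted p of the members. Its signal was 1330 and 1303 in control and 4156 and 5738 in stimulated cells, a rise of 1.89 (SE 0.24, limma adjusted p = 0.0103). Mrpl20, which helps the early assembly of the large subunit in bacteria, went from 1119 and 1469 to 4032 and 5993, by 1.94 (SE 0.35). For each of these 3 genes the stimulated arrays were the 2 highest of the 8. The remaining Mrpl risers gained between 1.27 and 1.65 on the log2 scale, among them Mrpl47, Mrpl21, Mrpl15, Mrpl52, Mrpl51, Mrpl45, Mrpl54, Mrpl50 and Mrpl2. With all probe sets of a gene averaged, Mrpl47 and Mrpl21 differed by 0.49 and 0.47 and did not pass, nor did Mrpl17, at 0.72. The second probe set of Mrpl21, well above the floor at a mean log2 signal of 8.11, differed by 0.04.

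The remaining Mrps risers gained between 1.16 and 1.80. Mrps25 rose by 1.80, but its dimmer probe sets differed by 0.28 and -0.11, and with all of them averaged its difference of 0.66 did not pass. Mrps7, a head protein of the small subunit, rose by 1.72, Mrps2 by 1.65, Mrps5, near the messenger RNA entry, by 1.63, and Mrps12, at the decoding centre, by 1.19. Mrps22, a protein found only in mitochondria whose loss is known to cause respiratory chain deficiency, rose from 704 and 800.2 to 1715 and 3243, by 1.65 (SE 0.42, limma adjusted p = 0.0398). Mrps34, also specific to mitochondria, had 2040.2 and 2179 in control and 3391 and 3837 in stimulated cells, and its difference of 0.77 did not pass (limma adjusted p = 0.0742). Both stimulated arrays of Mrps34 exceeded both control arrays.

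The members with the smallest differences were Mrpl4 (-0.04), Mrpl10 (0.10) and Mrpl24 (0.14) in the large and Mrps16 (-0.14), Mrps35 (0.17) and Mrps24 (0.39) in the small subunit. Mrpl4, a core protein at the exit tunnel, had 1709 and 1548 in control and 1605 and 1561 in stimulated cells, so the groups overlapped. Mrpl58, a peptidyl-tRNA hydrolase built into the large subunit that was known earlier as Ict1, had 3607 and 3811 in control and 2207 and 3191 in stimulated cells. Its difference of -0.48 did not pass (95% interval -1.11 to 0.14, limma adjusted p = 0.225). Sorted by origin, a grouping made after the data were seen, 21 of 45 members with a bacterial counterpart rose (median 1.16) and 11 of 31 specific to mitochondria (median 0.90). Mrps18a and Mrps18b, relatives of bacterial S18 that do not take its place in the ribosome, were counted as specific to mitochondria. The members at the top and at the bottom of the range thus came from both subunits.

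The calls of this comparison rested on few arrays. Without control replicate 1 or 2, 0 members passed in limma, although 32 and 38 had an unadjusted p under 0.05. Without stimulated replicate 2 only 1 passed, Mrpl3, and 33 had such a p. The median member difference was 0.79 to 1.30 over all sets that leave out 1 array. Stimulated replicate 2 was higher than replicate 1 for 75 of 76 members, by a median of 0.53, while all genes tested had a median of -0.14. Of the 38 other probe sets of the risers, 32 had a difference of the same sign.

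**Figure D2:**
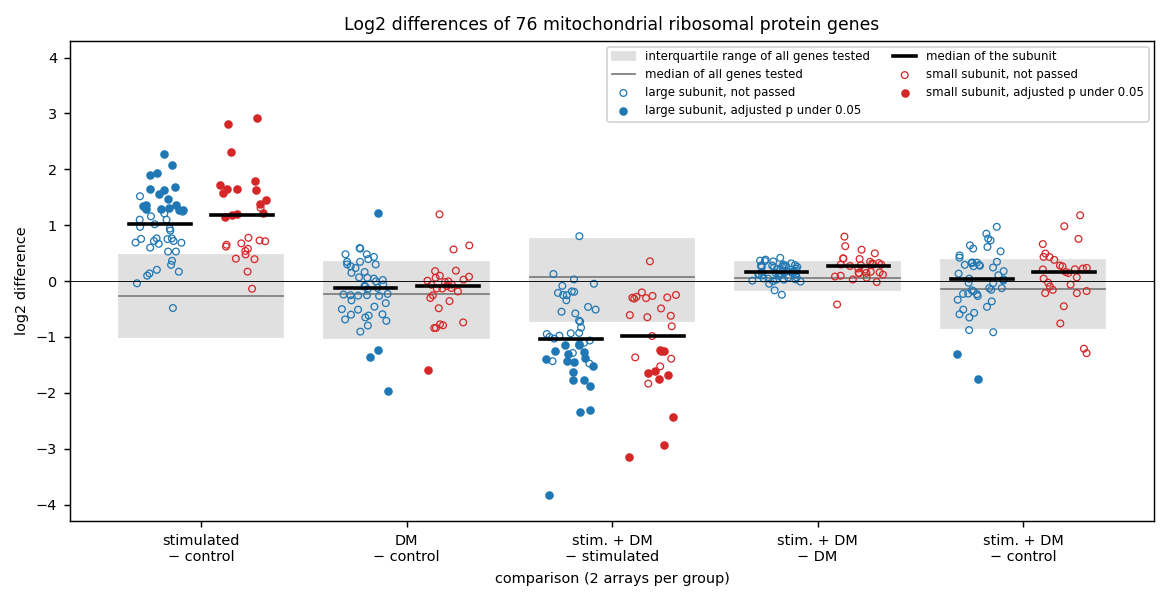
Log2 differences of the 76 members in 5 comparisons of 2 arrays per group, Mrpl in blue and Mrps in red, filled where limma's adjusted p was under 0.05. Black bars are subunit medians, and the grey bar and line are the interquartile range and median of all 13983 genes tested. The medians of both subunits lie above the grey band for stimulation (1.02 and 1.17) and below it for dorsomorphin in stimulated cells (-1.03 and -0.98).

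The second comparison asked what dorsomorphin did in cells without stimulation. Of the 76 members, 1 rose, 4 fell and 71 did not pass (limma, adjusted p under 0.05), where 1.92% of all genes tested rose and 11.1% fell. The median difference was -0.11 over the members, -0.12 for Mrpl and -0.09 for Mrps, against -0.24 over all genes tested, and with arrays centred on their medians it was 0.49 against 0.36. Both dorsomorphin arrays lay below both control arrays for 34 members and above for 18, against 42.3% and 23.2% of all genes tested.

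Mrpl17 fell the most, from 1261 and 1249 in control to 404 and 256 with dorsomorphin, by 1.96 on the log2 scale (SE 0.35, limma adjusted p = 0.0250). Mrps2, a protein at the back of the small subunit, went from 853 and 824 to 335 and 232, and fell by 1.59 (SE 0.31, limma adjusted p = 0.0297). Mrpl24, a protein at the exit of the peptide tunnel, went from 6306 and 6826 to 2681 and 2430.1, and fell by 1.36 (SE 0.22, limma adjusted p = 0.0201). Mrpl55 went from 534 and 590 to 234 and 244, and fell by 1.23 (SE 0.25, limma adjusted p = 0.0325). For none of these 4 genes did the 2 groups overlap. Mrpl24 and Mrpl55 were among the 44 members that did not pass with stimulation, with differences of 0.14 and 0.53.

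Mrpl9, a large subunit protein with a bacterial counterpart, was the member that rose. Its signal was 2024 and 2028 on the control and 4282 and 5174 on the dorsomorphin arrays, 2074 and 2498 on the stimulated, and 3489 and 4522 on the stimulated arrays with dorsomorphin. All 4 dorsomorphin arrays stood above the 4 arrays without it. The rise in unstimulated cells was 1.22 (SE 0.25, limma adjusted p = 0.0331), and the other 2 probe sets of the gene differed by 1.17 and 1.05. The promoter shown for Mrpl9 is among the 8 with the NRF1 motif, and so is that of Mrpl17, which fell the most in this comparison. The part of the motif was not tested. Mrps30 had signals of 839 and 833 on the control arrays and of 1628 to 2588 on the 6 others. Its dorsomorphin difference of 1.19 did not pass (SE 0.29, limma adjusted p = 0.0515), and its stimulation difference of 1.38 did (limma adjusted p = 0.0256). The members with the smallest dorsomorphin differences were spread over both subunits, among them Mrpl16 (0.02), Mrpl27 (0.04), Mrps24 (0.01) and Mrps21 (-0.02).

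Without either control array, or without dorsomorphin replicate 2, 0 members passed in this comparison, each time with 6 at an unadjusted p under 0.05 in limma. Without dorsomorphin replicate 1, 3 passed, Mrpl17, Mrpl24 and Mrps2. With arrays centred on their medians 0 passed, 7 of them with such a p, and with cyclic loess 2 rose and 2 fell.

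**Figure D3:**
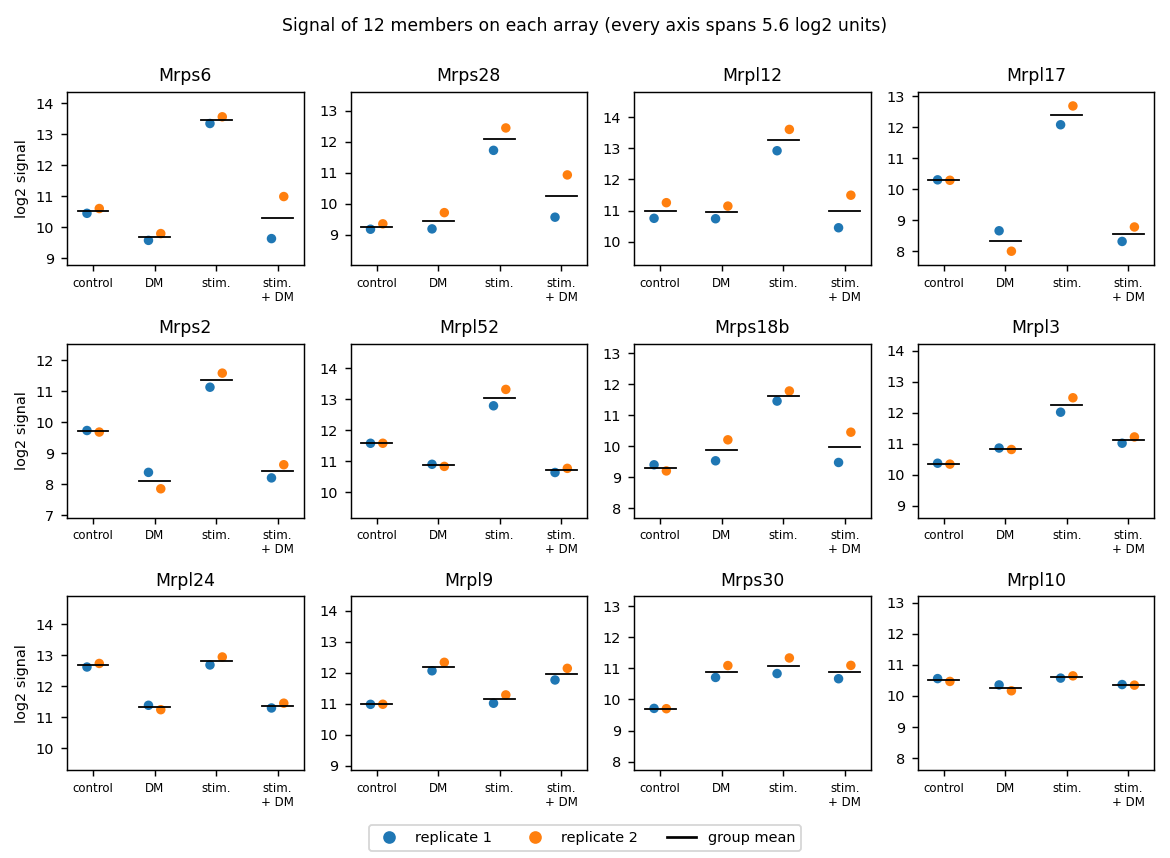
Log2 signal of 12 members on each of the 8 arrays, replicate 1 in blue and replicate 2 in orange, with group means as bars and every vertical axis spanning the same range. Mrpl17, Mrps2 and Mrpl52 are low on all 4 dorsomorphin arrays and high on the stimulated ones, Mrpl24 is low and Mrpl9 high on the dorsomorphin arrays at any stimulation, and Mrpl10 is nearly level.

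The third comparison set stimulated cells with dorsomorphin against stimulated cells without it. Of the 76 members, 28 fell, 0 rose and 48 did not pass (limma, adjusted p under 0.05), where 12.4% of all genes tested fell and 9.71% rose. The members that fell were 18 Mrpl and 10 Mrps genes. The median difference was -1.01 over the members and 0.07 over all genes tested, and 72 of 76 members were lower with dorsomorphin. Both arrays with dorsomorphin lay below both without it for 56 members, against 29.1% of all genes tested, and above for 2, Mrpl9 and Mrps9, against 31.4%. This comparison shares the stimulated arrays with the first, so an error on these arrays enters both, and the differences are only set side by side.

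Mrpl17 had the largest difference, from 4316 and 6565 in stimulated cells to 319 and 440 with dorsomorphin. It fell by 3.83 (SE 0.35, limma adjusted p = 0.00576), and its 2 dimmer probe sets differed by 0.37 and -1.02. Its level with both treatments lay below that of unstimulated control cells, at 1261 and 1249, with no overlap. Mrps2 behaved in the same order, with 2245 and 3075 in stimulated cells, 296 and 397 with dorsomorphin added and 853 and 824 in control. Mrps2 fell by 2.94 (SE 0.31, limma adjusted p = 0.00599), and its other probe set differed by -2.67. For both genes the 4 dorsomorphin arrays were the 4 lowest.

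Mrps6 fell by 3.14 (SE 0.45, limma adjusted p = 0.00957), and its arrays with both treatments (797 and 2038) spanned those of the control group. Mrpl12 fell by 2.30 (SE 0.45, limma adjusted p = 0.0205), and its arrays with both treatments (1394 and 2885) did so as well. Mrps27, a pentatricopeptide repeat protein of the small subunit, went from 501 and 545 to 81.2 and 115, and fell by 2.44 (SE 0.32, limma adjusted p = 0.00804). Mrpl52 went from 7076 and 10203 to 1594 and 1749, and fell by 2.35 (SE 0.25, limma adjusted p = 0.00610). All 3 other probe sets of Mrpl52 were lower as well, by 2.41, 2.51 and 0.81 on the log2 scale. In each of these genes the groups with and without dorsomorphin were apart by more than the distance between the arrays of either group.

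The other members that fell did so by 1.13 to 1.87, among them Mrpl51, Mrpl54, Mrpl47, Mrps10, Mrps7, Mrps18b, Mrpl21, Mrps15, Mrpl20, Mrpl11 and Mrpl3. With all probe sets of a gene averaged, Mrpl21 (-0.27), Mrps10 (-0.61), Mrpl54 and Mrps15 were among those that did not pass. A second probe set of Mrpl21 and that of Mrps10, both above the floor on average, were higher with dorsomorphin, by 0.57 and 0.53. Mrpl24 fell by 1.44 and Mrpl55 by 1.44 in stimulated cells, close to their differences of -1.36 and -1.23 in unstimulated cells. Mrps28 was lower by 1.83 but did not pass (SE 0.51, limma adjusted p = 0.0535), and its arrays with both treatments were far apart (760 and 1954). Mrps12 (-0.98), Mrps22 (-1.39) and Mrps34 (-0.28) did not pass, and neither did Mrpl10 (-0.25) and Mrpl4 (-0.18). The smallest differences were those of Mrpl49 (0.03), Mrpl44 (-0.05) and Mrpl58 (-0.08) in the large and Mrps30 (-0.20), Mrps24 (-0.25) and Mrps35 (-0.27) in the small subunit. The other probe set of Mrpl49, nearly as bright (mean log2 signal 9.11 against 9.36), differed by -0.93, so its place here depends on the probe set. Mrpl9 was higher by 0.80 and Mrps9 by 0.35, and neither passed (limma adjusted p = 0.0688 and 0.271).

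The count depended on single arrays. Without stimulated replicate 1, 36 passed, without stimulated replicate 2, 7, without either control array 13, without stimulated with dorsomorphin replicate 2 18, and without stimulated with dorsomorphin replicate 1 only 5, Mrpl17, Mrpl52, Mrps2, Mrps27 and Mrps6. With arrays centred on their medians 11 passed. In a limma fit of only the 4 arrays compared 0 passed, although 32 had an unadjusted p under 0.05. Among stimulated arrays with dorsomorphin, replicate 2 was higher than replicate 1 for 72 of 76 members, by a median of 0.44. Of the 33 other probe sets of the members that fell, 25 had a difference of the same sign.

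In the presence of dorsomorphin, stimulation gave no calls. In the comparison of stimulated with unstimulated cells, both with dorsomorphin, 0 of the 76 members and 0.0% of all genes tested passed (limma, adjusted p under 0.05). At an unadjusted p under 0.05 these were 0 members and 3.85% of all genes. The median member difference was 0.17, against 0.06 over all genes tested, and 69 of 76 members were higher with stimulation. The largest was that of Mrps28, at 0.80 (SE 0.51, 95% interval -0.47 to 2.06). Its difference without dorsomorphin, 2.82, had an interval of 1.55 to 4.08, and these intervals overlap. The test of the difference between these effects, given below, passed for 0 members. Between replicates numbered 1 the median was 0.01, with 39 of 76 higher, and between replicates numbered 2 it was 0.35, with 73 higher.

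Against unstimulated control cells, stimulated cells with dorsomorphin had 2 members lower and 0 higher (limma, adjusted p under 0.05), where 6.31% of all genes tested fell and 0.915% rose. Mrpl17 fell by 1.75 (SE 0.35, limma adjusted p = 0.0436), a call that was kept in 0 of the 8 sets without 1 array and in 3 of 9 other settings, with a difference of -0.77 when all its probe sets were averaged. It was also lost with the replicate number as a block. Mrpl24, with 2526 and 2812 against 6306 and 6826, fell by 1.30 (SE 0.22, limma adjusted p = 0.0313). The median over the members was 0.09, against -0.14 over all genes tested. Leaving out either control array or either array with both treatments left 0 calls in limma and 6 to 16 members at an unadjusted p under 0.05. Leaving out any of the other arrays left Mrpl24, and median centring left 0 calls and 10 members with such a p.

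Over the 4 groups, 69 members had their highest mean in stimulated cells. Both stimulated arrays exceeded the other 6 for 52 members, 31 Mrpl and 21 Mrps, against 16.5% of all genes tested. The exceptions in the order of means were Mrpl14, Mrpl49 and Mrps9, highest with both treatments, Mrpl9, highest with dorsomorphin alone, and Mrpl4, Mrpl58 and Mrps16, highest in control. For none of these 7 except Mrpl9 did any comparison pass, so the order of their means was not shown to be beyond the spread between arrays. By its other probe set Mrpl49 was highest in stimulated cells, 0.89 above control, so it is an exception only by the probe set used. The interaction, that is, the stimulation difference with dorsomorphin minus that without it, had a median of -0.83 over the members and 0.35 over all genes tested. With arrays centred on their medians these were -1.45 and -0.27. It passed for 0 members (limma, adjusted p under 0.05) and for 0.0858% of all genes tested, and 23 members had an unadjusted p under 0.05. Without stimulated replicate 1 it passed for 2 members. The lowest adjusted p-values of the members were those of Mrpl3 (-1.61, limma adjusted p = 0.0761) and Mrpl52 (-1.64, 0.0766), and the largest sizes were those of Mrps6 (-2.30, 0.101), Mrpl12 (-2.24, 0.105) and Mrps18b (-2.22, 0.0954). With all arrays and these settings, the dorsomorphin difference was therefore not shown to depend on stimulation for any single member, while other settings made up to 18 such calls.

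The subunits were compared by the median of the log2 differences over Mrpl minus that over Mrps genes. For stimulation the Mrpl median was lower by 0.16 (1.02 against 1.17), and for dorsomorphin it was lower by 0.03 in unstimulated and by 0.05 in stimulated cells. With stimulation and dorsomorphin against dorsomorphin alone it was lower by 0.11, and against control by 0.13. For the interaction the Mrpl median was higher by 0.21 (-0.81 against -1.02). The median log2 signal of Mrpl minus that of Mrps genes on each array is another measure. It was 0.10 and 0.22 on the control, 0.44 and 0.25 on the dorsomorphin, 0.03 and -0.09 on the stimulated and 0.44 and 0.13 on the stimulated arrays with dorsomorphin, with a pooled SD of 0.14 between arrays of a group. By group means it was lower with stimulation by 0.19 and higher with dorsomorphin, by 0.18 in unstimulated and 0.31 in stimulated cells. It was higher by 0.12 with both treatments than in control. For dorsomorphin, and for both treatments against control, the 2 measures thus had opposite signs, so these data give no single direction between the subunits there. No test was made of these differences, as genes are not replicates. The symbols do not follow the structure in every case: the products of Mrps30 and Mrps18a are known to sit in the large subunit, and that of Mrps36 is now assigned to the oxoglutarate dehydrogenase complex. With these 3 genes placed so, a grouping chosen after the data were seen, the stimulation difference between the subunits turned from -0.16 to 0.13 and that of the interaction from 0.21 to -0.10. The order of the subunits in these 2 comparisons was thus set by where 3 genes were counted.

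Other genes of the same pathway were taken from lists. Their counts stand beside the shares of all genes tested given above, which were 8.98% rising with stimulation and, falling with dorsomorphin, 11.1% in unstimulated and 12.4% in stimulated cells. Among mitoribosome proteins with other symbols, Gadd45gip1 and Ptcd3 rose with stimulation (limma adjusted p = 0.0334 and 0.0420), Ptcd3 by 1.06, and Dap3 (0.09) and Chchd1 (1.25) did not pass. Of 10 translation factors of mitochondria, 3 rose with stimulation and 4 fell with dorsomorphin in stimulated cells. The elongation factors Tufm, Tsfm and Gfm1 rose by 1.55, 1.91 and 1.69 and fell by 1.35, 1.28 and 1.63. Of 26 assembly factors, 5 rose with stimulation, among them Fastkd2 (2.09) and Noa1 (1.49), and 4 fell with dorsomorphin in stimulated cells, among them Noa1 (-2.24). Of 15 genes of mitochondrial DNA expression, 5 rose and 2 fell with stimulation, and 2 rose and 7 fell with dorsomorphin in stimulated cells. Top1mt, the topoisomerase of mitochondrial DNA, rose by 2.45 and fell by 3.61, and Polg2, the accessory subunit of the mitochondrial DNA polymerase, fell by 1.77 and rose by 2.12. Of 19 mitochondrial aminoacyl-tRNA synthetases and partners, 2 rose with stimulation (Yars2 by 1.97 and Rars2 by 1.02), 5 fell with dorsomorphin in unstimulated cells and 7 fell, with 1 rising, in stimulated cells. The 2 of 19 that rose with stimulation are near the share of all genes tested. These lists too share the stimulated arrays between comparisons.

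Among 12 regulators, Myc, a transcription factor of growth genes, had log2 signals of 10.12 and 9.89 in control, 13.48 and 13.55 in stimulated, 8.35 and 8.42 in dorsomorphin and 8.53 and 8.73 in doubly treated cells. Myc rose by 3.51 with stimulation and, with dorsomorphin, fell by 1.62 in unstimulated and fell by 4.89 in stimulated cells (limma adjusted p = 0.00784, 0.0139 and 0.00313). Pprc1, a coactivator of nuclear genes for mitochondria, rose by 2.42 with stimulation and fell by 2.05 with dorsomorphin in stimulated cells (limma adjusted p = 0.0163 and 0.0229). Nrf1, whose motif was searched in the promoters, did not pass with stimulation (0.18) and rose by 1.58 with dorsomorphin in unstimulated cells (limma adjusted p = 0.0307). Gabpa (0.03), Yy1 (-0.23), Tfam (-0.001) and Polrmt (0.001) did not pass with stimulation. Of the 12 regulators, 2 rose and 0 fell with stimulation. With dorsomorphin 1 rose and 2 fell in unstimulated cells, and 0 rose and 3 fell in stimulated cells. Ppargc1b had log2 signals of 9.25 and 9.35 in control and 8.95 and 8.84 in stimulated cells. Its signals were 8.36 and 8.13 in dorsomorphin and 7.85 and 8.64 in doubly treated cells. Esrra was at 8.41 to 9.39 and Ppargc1a at 2.25 to 6.11 over all arrays. The ETS motif was in 10 of 29 members that rose with stimulation and have a promoter in the table (34.5%) and in 15 of 38 that did not pass (39.5%). The NRF1 motif was in 3 (10.3%) and 5 (13.2%) of them, the YY1 motif in 5 (17.2%) and 8 (21.1%), and the E-box in 3 (10.3%) and 2 (5.3%). No test was made of these shares.

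**Figure D4:**
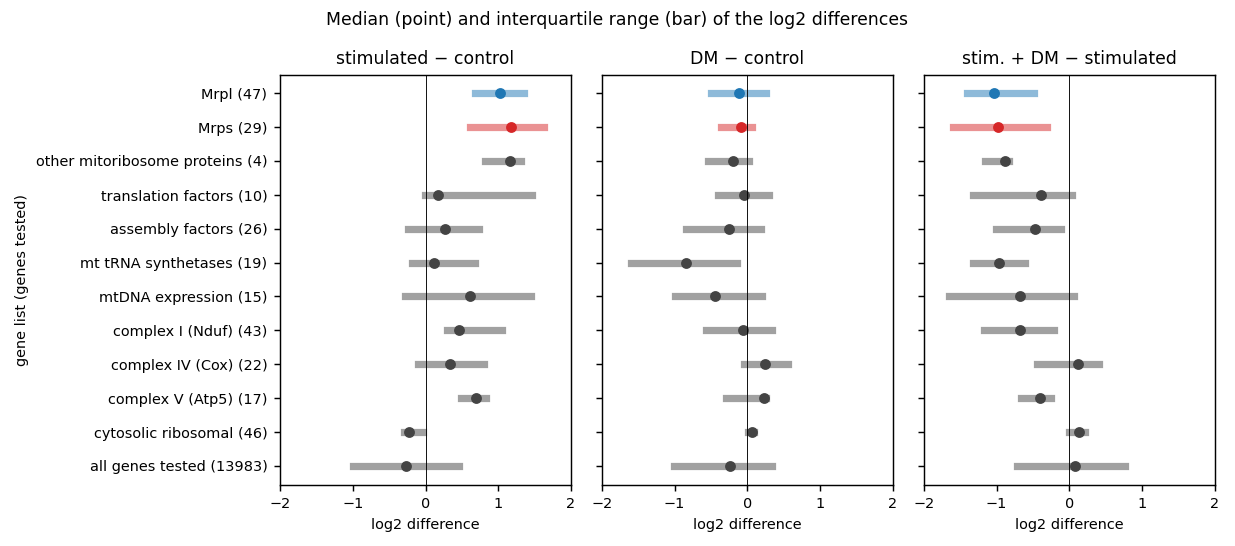
Medians (points) and interquartile ranges (bars) of the log2 differences of Mrpl and Mrps genes, of pathway lists and of all genes tested, in 3 comparisons, with the number of genes tested in brackets. Mrpl and Mrps genes have medians of 1.02 and 1.17 for stimulation, complex I genes 0.46 and cytosolic ribosomal protein genes -0.23.

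The cytosolic ribosome and the respiratory chain, which the mitoribosome serves, were set beside the members. Of 46 genes taken as cytosolic ribosomal proteins by symbol, 4 rose with stimulation, Rpl12, Rpl14, Rpl7l1 and Rps25. This share is near that of all genes tested (8.98%). The symbol rule also takes in genes named as like a ribosomal protein, such as Rpl7l1. The list median was -0.23, where 32 of 76 mitochondrial ribosomal protein genes rose with a median of 1.10. The same 4 genes fell with dorsomorphin in stimulated cells, with a list median of 0.13. Of 43 genes named for complex I, 11 rose with stimulation (median 0.46) and 10 fell with dorsomorphin in stimulated cells (median -0.68). Ndufaf4, an assembly factor of complex I, rose by 3.36 and fell by 2.61. For complex IV, 1 of 22 genes rose and 2 fell with stimulation (median 0.34), and for complex V 2 of 17 rose (median 0.70). The complex IV counts of calls did not exceed the shares of all genes tested, 8.98% rising and 14.4% falling, and the complex V count was near the first. Both stimulated arrays lay above both control arrays for 30 complex I, 11 complex IV and 16 complex V genes, against 25.1% of all genes tested. They lay below for 5, 4 and 0, against 42.0%. The differences between the lists were not tested.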

How the data were processed

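Messenger RNA was measured in mouse CD4+ T cells on 8 arrays of 45101 probe sets each. The authors deposited linear intensity values, and the submitters' processing notes name RMA and the affy package, whose versions were not given in the sources used here. On every array the mean of the deposited intensities after trimming 2% at each end was 500, which is not the form of RMA output, and the processing step behind them was not given in the sources used here. This scaling sets each array's overall level, so differences are relative to it.

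The log2 of the deposited values was taken with no further normalization. Gene symbols came from the annotation of the platform, which gave 34945 probe sets a single symbol, and the brightest probe set stood for each gene. Probe sets with several symbols were left out, which leaves Mrpl30 and Mrpl53 out of the members. The 76 members had 156 probe sets. Brightest probe sets with suffixes _x_at (3 members) and _s_at (7) may bind transcripts of more than 1 gene, and their values are uncertain to that extent. Genes above the 40th percentile of all values on at least 2 arrays were tested.

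All 8 arrays entered 1 linear model of the 4 groups in limma 3.58.1, run under R 4.3.3, with moderated variances (4 residual and 1.90 prior degrees of freedom). The tests were two-sided, with Benjamini-Hochberg adjustment over all genes tested and a threshold of 0.05, in 6 contrasts. The limma step was tested on simulated data. For the members the median SE of a difference was 0.31 on the log2 scale, and the median 95% interval reached 0.76 to either side. Named members are the up to 8 largest calls and 3 smallest differences per subunit and comparison, plus members with roles known from textbooks. The members and lists were chosen with earlier results of these data known. Other normalizations, filters, probe set rules, variance models and left-out arrays were tried as alternatives. Sequences are those of RefSeq (GRCm38.p6). Probes were not placed on the genome.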

Additional observations from a re-analysis of the deposited data

Results flagged for a closer look

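The arrays of 6 members moved in opposite directions with dorsomorphin, higher on both arrays in unstimulated cells and lower on both in stimulated cells, with no overlap between the groups in either case. They are 7.89% of the members, and 4.04% of all genes tested did the same. The difference between the effects, stimulated minus unstimulated on the log2 scale, was -1.29 for Mrpl11, -1.61 for Mrpl3, -1.24 for Mrpl33, -1.19 for Mrpl50, -1.04 for Mrps12 and -2.22 for Mrps18b. In Mrpl3 the dorsomorphin difference was 0.48 in unstimulated and -1.13 in stimulated cells, and in Mrps18b it was 0.57 and -1.65. In Mrps12 the higher control array and the lower dorsomorphin array both read 10.49 on the log2 scale, so the separation there was minimal. Mrpl52 moved oppositely with stimulation, with a difference of 1.47 without dorsomorphin and -0.16 with it, and the difference between the effects was -1.64. Such a pattern held for 1.32% of the members and 1.51% of all genes tested. These members were picked by direction, and limma's test of the difference itself passed for 0 of the 76 members (23 at an unadjusted p under 0.05), with adjusted p-values of 0.0761 for Mrpl3, 0.0766 for Mrpl52, 0.0954 for Mrps18b, 0.104 for Mrpl11, 0.121 for Mrpl33, 0.160 for Mrpl50 and 0.193 for Mrps12.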

How the results depend on the processing

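All alternatives but 1 were listed before they were run, and each changed 1 choice. For stimulation, with 32 calls, the counts were 19 with no filter on low values, 11 with only the arrays compared, 49 with trend and robust variance, and 0 to 33 without 1 array. For dorsomorphin in unstimulated cells, with 5 calls, the counts were 0 with median centring, 2 with no filter, 8 with the filter at the 60th percentile, 11 with trend and robust variance, 0 with only the arrays compared, and 0 to 5 without 1 array. For dorsomorphin in stimulated cells, with 28 calls, they were 11 with median centring, 16 with no filter, 46 at the 60th percentile, 46 with trend and robust variance, 0 with only the arrays compared, and 5 to 36 without 1 array. For both treatments against control, with 2 calls, they were 0 with median centring, 1 with cyclic loess, 0 with no filter, 9 at the 60th percentile, 4 with log2(value + 16), 1 with the mean of all probe sets, 10 with trend and robust variance, 0 with only the arrays compared, and 0 to 1 without 1 array. For the interaction, with 0 calls, they were 11 at the 60th percentile, 2 with log2(value + 16), 18 with trend and robust variance, and 0 to 2 without 1 array. For stimulation under dorsomorphin, the count was 0 in every setting, with 0 to 2 members at an unadjusted p under 0.05 in limma. The cause of these changes was not tested. Fits of fewer arrays also have fewer degrees of freedom, and the part of this in the counts was not tested either.

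Median centring moved the median of all genes tested from -0.27 to 0.20 for stimulation, and from -0.24 to 0.36 for dorsomorphin. The large minus small subunit median became 0.046 with cyclic loess for both treatments against control, and 0.39 with the mean of all probe sets for the interaction, which ranged from 0.029 to 0.334 without 1 array. With Mrps30 and Mrps18a counted as large and Mrps36 left out, an alternative added after seeing the data, it was 0.13 for stimulation and -0.10 for the interaction. Of 351 values of named members under settings other than leaving out 1 array, 281 kept direction and call, 70 lost the call and 0 reversed. Of 312 without 1 array, 190 kept both, 122 lost the call and 0 reversed. Where a group was left with 1 array, that array was assumed to vary like the other groups.

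With the replicate number as a block, 42 members passed for stimulation (31 of the 32 among them), 6 for dorsomorphin, 42 for dorsomorphin in stimulated cells (all 28 among them), 2 for both treatments against control (Mrpl24 among them, while Mrpl17 lost its call), and 0 for the interaction and for stimulation under dorsomorphin. Deviations of same-numbered arrays correlated at 0.069 to 0.178 between groups, not all above 0.1, so the numbers were not taken as pairs.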

Other observations

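Of 22 complex IV genes, 1 rose and 2 fell with stimulation, where 8.98% and 14.4% of all genes tested did. With dorsomorphin in stimulated cells 2 rose and 1 fell, where 9.71% and 12.4% of all genes tested did. None of these counts exceeded the share of all genes tested, so the genes below are described singly. Cox7a2l, which supports supercomplexes of the respiratory chain, fell by 1.97 with stimulation and rose by 1.60 with dorsomorphin in stimulated cells (limma adjusted p = 0.0118 and 0.0142), and Cox20, an assembly factor of complex IV, fell by 0.96 and rose by 1.19 (limma adjusted p = 0.0272 and 0.0155). Cox5b did not pass with stimulation and fell by 1.62 with dorsomorphin in unstimulated and fell by 2.39 in stimulated cells (limma adjusted p = 0.0186 and 0.00593). Of the mitochondrial aminoacyl-tRNA synthetases, Iars2 and Vars2, which load isoleucine and valine, fell by 2.78 and fell by 2.63 with dorsomorphin in unstimulated cells (limma adjusted p = 0.0141 and 0.0139), and Mars2 had a difference of -3.30 that did not pass (limma adjusted p = 0.0968). Of the erythroid markers measured, Alas2 was at a signal of 145 to 541 on the replicates numbered 2 and of 3.40 to 52.9 on those numbered 1. The other, Hba-a1, was at 3.3 to 27.9 on the replicates numbered 2 and at 9.7 to 65.4 on those numbered 1. Hba-a1 was lower on replicate 2 in every group but the stimulated one with dorsomorphin, so these markers did not share a direction. The median log2 signal of the members was 11.21 and 11.86 on the stimulated arrays and 10.27 to 10.78 on the 6 others.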
